A study of Homo sapiens with 72 samples.

Results

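The change in RNA levels that STK19 knockout cells showed with an inhibitor of ATR at 20 h was compared, gene by gene, with the change in unedited cells. The comparison drew on 18 of the 72 libraries of polyadenylated RNA in the study, and 6316 of 15470 tested genes passed it with the same sign in both knockout clones. The cells were HEK293 Flp-In T-REx, a human embryonic kidney line that accepts a transgene at a fixed genomic site. WT was the unedited line, and STK19_KO1 and STK19_KO2 were 2 clones labelled as STK19 knockouts. Each line gave 3 libraries in the solvent DMSO and 3 in 3 µM VE-821, an ATR inhibitor (ATRi), at the time labelled 20 h. Cells of every group had been exposed to UV and left to recover for 3 h before DMSO or VE-821 was added. Whether 20 h runs from UV or from the addition of the agent differs between the submitters' descriptions. The sources used here do not state the UV dose, and unirradiated cells with the inhibitor were not analysed here. WT was the only unedited line, so a trait of WT and an effect of STK19 loss cannot be told apart. CSB_KO, 1 clone labelled as lacking CSB and treated alike, is given beside the results where it bears on them.

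STK19 is a small DNA-binding protein that has been placed in transcription-coupled repair. In that pathway RNA polymerase II stalls at a UV lesion in the transcribed strand, CSB (the product of ERCC6) binds the stalled polymerase, and nucleotide excision repair factors are recruited to remove the lesion. ATR is the kinase that senses single-stranded DNA at blocked replication forks and repair gaps. With its partner CHEK1 it holds back origin firing and entry into mitosis, partly through control of the CDC25 phosphatases and of E2F-driven transcription.

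The 18 libraries held 37.2 to 212.9 M counts, with a median of 61.0 M, and 1.84% to 3.53% of counts came from mitochondrially encoded genes. Within each group the 3 libraries differed by more than sampling noise, with a chi-square per gene of at least 4.08 over 18 pairs, so none was counted as a repeat of another. Nothing in the labels says that the 3 libraries of a group came from separate cultures, so a p-value here covers the spread between these samples alone, which may be technical. Levels are in counts per 1000000 counts of a library (CPM) after scaling of library sizes, and an interaction is the mean log2 change with ATRi in both knockouts minus the log2 change in WT, given ± its standard error. A positive interaction is called higher and a negative one lower. All levels are relative abundances.

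STK19 itself (ENSG00000204344, GRCh38 6:31971091-31982821) was examined first. Its RNA stood at 24.8, 27.5 and 24.7 CPM in WT in DMSO and at 53.8, 47.8 and 47.7 CPM in WT with ATRi. In STK19_KO1 it stood at 26.3, 25.6 and 27.6 CPM in DMSO and at 41.8, 44.2 and 40.4 CPM with ATRi. In STK19_KO2 the values were 25.7, 27.8 and 27.0 CPM and 42.9, 45.6 and 44.6 CPM. The lines overlapped in DMSO, so this RNA does not check the knockout labels; an edit that ends a protein can leave its transcript in place. The rise of STK19 with ATRi was 0.96 ± 0.07 on the log2 scale in WT, 0.67 in STK19_KO1 and 0.73 in STK19_KO2, an interaction of -0.26 ± 0.09 (edgeR, adjusted p = 0.0139). The STK19 call was lost without WT ATRi replicate 1 (interaction -0.20, adjusted p = 0.0804) and without WT DMSO replicate 3 (-0.23, adjusted p = 0.0547). It was also lost with upper quartile factors (adjusted p = 0.0592), among genes at a mean of 3 log2 CPM or more (0.0726) and with STK19_KO2 alone (0.0688). The gene overlaps DXO and C4A in the annotation.

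Of the 15470 genes tested, 3199 (20.7%) were called higher and 3117 (20.1%) lower, each at a Benjamini-Hochberg adjusted p under 0.05 in edgeR's quasi-likelihood test with the same sign in both clones. In 2032 genes (13.1%) higher and 2037 (13.2%) lower, each clone also passed on its own. Most differences were small: the median size over called genes was 0.43 on the log2 scale. At least a 2-fold difference was found in 541 higher genes (3.50%) and 51 lower genes (0.330%), and 297 of the 541 had a mean level under 1 CPM. Among genes with a mean of at least 3 log2 CPM, these counts were 95 and 7. The 2 interactions share the WT libraries, so a sign shared by both clones does not come from independent comparisons.

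The calls came from several combinations of changes. Of the 3199 genes called higher, 695 fell with ATRi in WT and passed in neither knockout, 692 fell in all 3 lines, 587 fell in WT and passed in 1 clone, and 501 rose in both knockouts without passing in WT. In 177 the direction was opposite, down in WT and up in both knockouts. Of the 3117 called lower, 990 rose in all 3 lines, 539 rose in WT and passed in neither knockout, 452 fell in both knockouts without passing in WT, and 140 rose in WT and fell in both knockouts. The inhibitor changed 9885 genes (63.9%) in WT, 9517 (61.5%) in STK19_KO1, 9002 (58.2%) in STK19_KO2 and 4876 (31.5%) in CSB_KO. The SD of the log2 change over genes was 0.88 in WT, 0.79 and 0.75 in the knockouts, and 0.58 in CSB_KO.

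**Figure D1:**
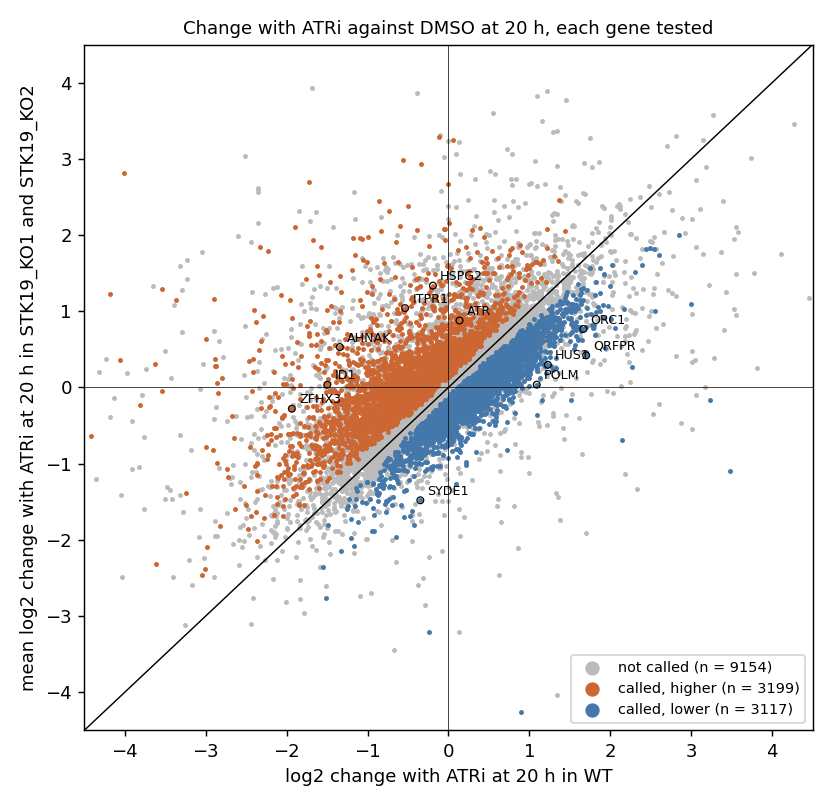
Log2 change with ATRi against DMSO at 20 h in WT (x axis) and the mean change in STK19_KO1 and STK19_KO2 (y axis), 1 point per gene, with 68 genes outside the axes. Genes called higher (orange, 3199) lie above the diagonal and genes called lower (blue, 3117) below it; AHNAK and ITPR1 fell in WT and rose in both clones, and POLM lies at 1.09 in WT and near 0 in the clones.

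The 12 genes with the largest positive interaction, among genes at 3 log2 CPM or more that passed in each clone, ran from 1.399 to 1.87. AHNAK (ENSG00000124942, 11:62433542-62556235), a very large scaffold protein beneath the plasma membrane, led them. It stood at 125, 114 and 118 CPM in WT in DMSO and at 42.8, 47.6 and 50.2 CPM with ATRi. In STK19_KO1 it went from 65.2, 62.1 and 56.4 to 84.2, 82.1 and 88.1 CPM, and in STK19_KO2 from 67.5, 71.8 and 70.1 to 104, 107 and 105 CPM. Every WT library with ATRi lay below every WT library in DMSO, and both clones showed the reverse order. The interaction of AHNAK was 1.87 ± 0.12 (edgeR, adjusted p = 3.78e-18), from changes of -1.34 in WT, 0.47 in STK19_KO1 and 0.59 in STK19_KO2. Its relative AHNAK2 had an interaction of 1.61 ± 0.16 (adjusted p = 2.28e-12).

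ZFHX3 (ENSG00000140836, 16:72782885-73891871), a homeobox transcription factor whose gene spans 1109 kb, fell further in WT than in the clones. Its level was 26.9, 28.0 and 29.2 CPM in WT in DMSO and 6.67, 7.94 and 7.32 CPM with ATRi. In STK19_KO1 it was 9.74, 9.83 and 8.39 CPM in DMSO and 7.80, 6.4 and 8.07 CPM with ATRi, and in STK19_KO2 7.31, 8.47 and 7.39 CPM and 6.53, 7.14 and 6.05 CPM. With ATRi the 3 lines overlapped, and only in DMSO did WT stand above both clones. The interaction of ZFHX3 was 1.66 ± 0.13 (adjusted p = 2.71e-15). DOCK4, an exchange factor for the GTPase Rac, had 15.8, 13 and 14.5 CPM in WT in DMSO and 5.49, 5.59 and 6.83 CPM with ATRi. Its 12 knockout libraries lay between 7.69 and 10.03 CPM, and its interaction was 1.399 ± 0.11 (adjusted p = 4.05e-15).

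ITPR1 (ENSG00000150995, 3:4493345-4847506), a receptor that releases calcium from the endoplasmic reticulum, rose in both knockouts. WT held 15.6, 14.5 and 15 CPM in DMSO and 10.2, 11.4 and 9.48 CPM with ATRi. STK19_KO1 went from 9.996, 11 and 9.33 to 22.8, 19.7 and 21 CPM, and STK19_KO2 from 7.45, 7.05 and 6.39 to 13.9, 13.9 and 14 CPM. ITPR1 thus fell by 0.54 in WT and rose by 1.08 and 1.01 in the clones, with no overlap between DMSO and ATRi in any line (interaction 1.58 ± 0.09, adjusted p = 2.27e-21). HSPG2, which encodes the basement membrane proteoglycan perlecan, did not pass in WT (-0.19 ± 0.19, adjusted p = 0.4). It rose in STK19_KO1 from 7.92, 8.25 and 7.22 to 19.9, 22.0 and 19.8 CPM and in STK19_KO2 from 4.42, 4.23 and 4.58 to 11.5, 10.01 and 10.6 CPM. The interaction of HSPG2 was 1.53 ± 0.24 (adjusted p = 3.89e-07).

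ID1 (ENSG00000125968, 20:31605283-31606515), an inhibitor of helix-loop-helix factors and a direct target of bone morphogenetic protein (BMP) signalling, is a short gene. It stood at 16.9, 17.7 and 16.5 CPM in WT in DMSO and at 6.47, 6.08 and 5.61 CPM with ATRi. The 12 knockout libraries held between 9.60 and 12.9 CPM, and neither clone passed for a change (adjusted p = 0.31 and 0.67), so WT lay above every clone library in DMSO and below every one with ATRi. The interaction of ID1 was 1.53 ± 0.14 (adjusted p = 7.91e-14). ZFC3H1, a subunit of the complex that hands nuclear polyadenylated RNA to the exosome, fell in WT from 58.8, 55.2 and 57.6 to 19.2, 19.0 and 21.8 CPM. In STK19_KO2 it rose by 0.23, and in STK19_KO1 its change of -0.14 did not pass; its interaction was 1.56 ± 0.10 (adjusted p = 3.97e-19). PEX6, an ATPase of peroxisomal protein import, fell in WT from 21.2, 21.7 and 19.4 to 7.39, 7.08 and 7.31 CPM and had an interaction of 1.46 ± 0.12 (adjusted p = 2.34e-15). The other 3 of the 12 were KRBA2 at 1.49 ± 0.13, ZDHHC11 at 1.42 ± 0.12 and the histone gene H4C15 at 1.44 ± 0.37. H4C15 shares near-identical copies, ZDHHC11 overlaps BRD9 on the same strand, and ZFC3H1 overlaps THAP2 on the other strand, so their reads may be divided between genes.

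The 12 genes with the largest negative interaction ran from -1.28 to -1.01. QRFPR (ENSG00000186867, 4:121328642-121381059), a neuropeptide receptor, stood at 5.55, 5.44 and 5.18 CPM in WT in DMSO and at 16.5, 18.3 and 17.6 CPM with ATRi. In STK19_KO1 it went from 9.68, 10.5 and 10.1 to 14.6, 14.8 and 13.2 CPM, and in STK19_KO2 from 10.3, 9.94 and 11.6 to 12.2, 13.6 and 14.5 CPM. QRFPR rose in all 3 lines, by 1.70, 0.50 and 0.34, from a lower DMSO level in WT to a higher ATRi level (interaction -1.28 ± 0.11, adjusted p = 5.76e-14). CNTROB, which encodes the centriole protein centrobin, had 34.2, 36 and 33.9 CPM in WT in DMSO and 82.6, 81.3 and 75.4 CPM with ATRi. It rose by 1.2003 in WT and by 0.19 in each clone (interaction -1.01 ± 0.07, adjusted p = 1.9e-17).

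POLM (ENSG00000122678, 7:44072062-44082530), a DNA polymerase of end joining, rose in WT alone by the test: its levels were 21.1, 23.0 and 21.9 CPM in DMSO and 46.8, 46.9 and 47.1 CPM with ATRi. In STK19_KO1 they were 22.3, 23.4 and 22.0 CPM and 21.6, 21.3 and 21.8 CPM, and in STK19_KO2 26.8, 26.5 and 26.3 CPM and 31.2, 28.1 and 28.2 CPM. The interaction of POLM was -1.05 ± 0.12 (adjusted p = 1.85e-10). STX1A, a syntaxin of vesicle fusion, rose in WT from 8.23, 8.68 and 8.91 to 24.4, 26.9 and 24.7 CPM and by less in both clones (interaction -1.05 ± 0.13, adjusted p = 1.24e-09). ZNF692, a zinc finger protein, moved in opposite directions. It rose in WT from 23.4, 25.2 and 23.8 to 37.2, 36.1 and 34.7 CPM and fell by 0.60 and 0.38 in the clones (interaction -1.07 ± 0.10, adjusted p = 4.26e-13).

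SYDE1 (ENSG00000105137, 19:15107401-15114985), a GTPase-activating protein, fell in all 3 lines and more in the knockouts. WT held 34.6, 38.7 and 34.4 CPM in DMSO and 26.3, 28.5 and 29.6 CPM with ATRi. STK19_KO1 went from 73.2, 75.1 and 72.3 to 24.6, 26.0 and 25.9 CPM, and STK19_KO2 from 73.2, 75.4 and 77.1 to 29.5, 27.0 and 27.1 CPM. For SYDE1, WT lay below both clones in DMSO, where the clones overlapped (interaction -1.13 ± 0.14, adjusted p = 3.14e-09). TRIP10, an F-BAR protein that bends membranes, did not pass in WT (0.11, adjusted p = 0.22) and fell by 0.98 and 0.84 in the clones (interaction -1.02 ± 0.09, adjusted p = 3.79e-13). The other 5 were EOLA1 at -1.18 ± 0.10, F8A1 at -1.17 ± 0.16, PET117 at -1.16 ± 0.13, APBB3 at -1.05 ± 0.10 and FNTB at -1.01 ± 0.10. EOLA1 and F8A1 have near-identical copies, and PET117, APBB3 and FNTB overlap the more highly counted KAT14, SLC35A4 and MAX, so these 5 are uncertain.

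**Figure D2:**
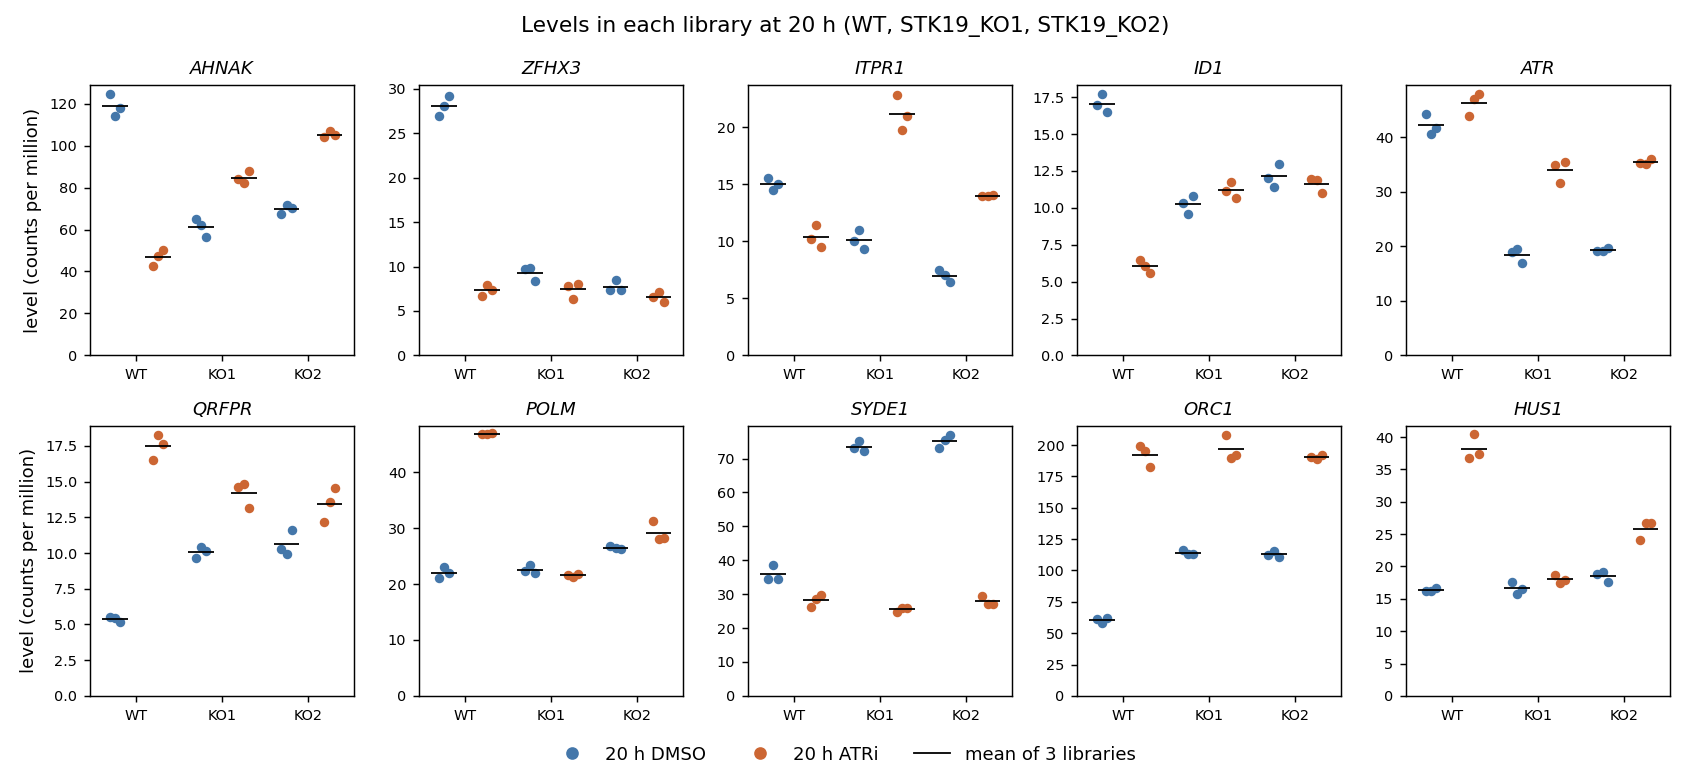
Level in CPM (y axis, from 0) of 10 genes in each of the 18 libraries, with DMSO in blue, ATRi in orange and a bar at the mean of 3 libraries; KO1 and KO2 are the STK19 knockout clones. In AHNAK and ITPR1 the WT libraries fall with ATRi while the clones rise; in ZFHX3, SYDE1 and ORC1 the WT libraries stand apart from those of both clones in DMSO and nearer to them with ATRi.

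The called genes differed in length. Genes called higher had a median genomic span of 75.6 kb, genes called lower 20.2 kb and genes not called 31.3 kb. Spans over 100 kb made up 41.5% of the higher genes and 5.68% of the lower genes. Of 640 tested genes spanning more than 300 kb, 301 (47.0%) were called higher and 17 (2.66%) lower; of 2475 genes between 100 and 300 kb, 1027 (41.5%) were higher and 160 (6.46%) lower. Among 3124 genes of up to 10 kb the balance was turned round, with 342 (10.9%) higher and 789 (25.3%) lower, and between 10 and 30 kb it was 12.9% higher and 28.8% lower of 4256. Between 30 and 100 kb the shares were close, at 19.7% and 18.6% of 4975. Numbered zinc finger (ZNF) genes made up 182 of the 3117 lower genes (5.84%) and 43 of the 3199 higher ones (1.34%). They were 450 of all genes tested (2.91%).

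The median change with ATRi was lower for long genes in WT and stayed near 0 in the clones. In WT it was 0.01 up to 10 kb, 0.05 from 10 to 30 kb, 0.00 from 30 to 100 kb, -0.23 from 100 to 300 kb and -0.35 beyond 300 kb. Beyond 300 kb the median was 0.06 in STK19_KO1, 0.09 in STK19_KO2 and 0.09 in CSB_KO. The medians of the interaction over the 5 classes were -0.08, -0.07, 0.03, 0.25 and 0.41, beside 0.02 over all genes tested. With the 18 libraries fitted alone the first 3 were -0.13, -0.12 and -0.01, with upper quartile factors -0.027, -0.021 and 0.081, and with no filter the first was -0.0030. In libraries at 4 h, which the 20 h contrast does not use, the 5 medians lay between -0.04 and 0.01.

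The same difference showed in raw shares of reads. Genes over 100 kb took 11.2% to 11.5% of counts in WT in DMSO and 9.55% to 10.04% with ATRi. In STK19_KO1 the shares were 7.27% to 7.54% and 7.44% to 7.85%, and in STK19_KO2 7.0% to 7.09% and 7.08% to 7.27%. Long genes thus took a larger share in WT than in either clone under both treatments, and only in WT did the ATRi libraries lie below the DMSO libraries. In 20 h DMSO the clones differed from WT by a median of -0.42 for genes of 100 to 300 kb, with ATRi by -0.18, and untreated by 0.07. Beyond 300 kb the medians over genes were -0.20, 0.28 and 0.12. By this median the clones went from below WT in DMSO to above it with ATRi. By share of counts, genes over 300 kb stayed below WT in the clones with ATRi. They took 0.581% to 0.614% in STK19_KO1, 0.537% to 0.549% in STK19_KO2 and 0.656% to 0.693% in WT. The median weighs each gene alike, and 427 of the 640 genes lay in the lowest of 3 level classes of equal size. Level moved with the calls too, since higher genes had a median of 3.78 log2 CPM and lower genes 5.71. With genes split by level into 3 classes of equal size, 73.7% of the 186 beyond 300 kb in the middle class were called higher, against 13.2% of its 864 genes up to 10 kb. In the lowest class the median interaction was positive in every span class, from 0.28 to 0.46.

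**Figure D3:**
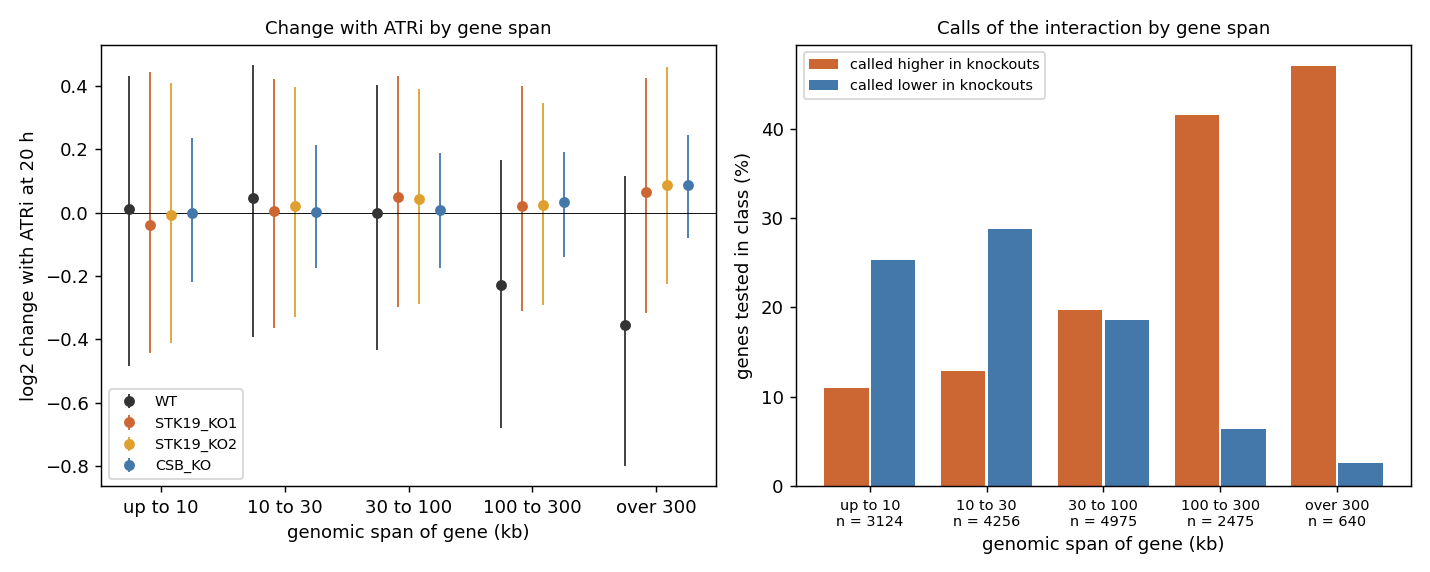
Left, median log2 change with ATRi at 20 h by genomic span of the gene (kb) in WT, both STK19 knockouts and CSB_KO, with lines from the 25th to the 75th percentile over genes; right, percent of tested genes called higher or lower in each class. Only the WT median drops beyond 100 kb, to -0.23 and -0.35, and the share called higher rises from 10.9% to 47.0%.

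Genes of the G1/S transition and of DNA replication were the list with the most lower calls: 25 of 36 were called lower and 3 higher, beside 20.1% and 20.7% of all genes. The list's median change with ATRi was 0.69 in WT, 0.45 in STK19_KO1, 0.29 in STK19_KO2 and 0.00 in CSB_KO. In WT 31 of the 36 members rose, beside 30.2% of all genes. The members are largely driven by E2F factors, and 17 of the 31 with a promoter in the RefSeq table (GRCh38.p14) hold TTTGGCGC or TTTCCCGC on either strand within the 300 bases around the start, mostly upstream. These letters occur in 2.31% of the 27305 promoters of the table and in 3.55% of the 12137 tested genes with a promoter in it. Among members called lower they occur in 12 of 22. The promoters of the 3 lower members with the largest interaction that hold such a match, chosen after their values were seen, are shown to make the match visible, with its letters in capitals. CDC6 lies at 17:40287629-40287928, CDT1 at 16:88803539-88803838 and GINS3 at 16:58392221-58392520, all on the plus strand. CDC6 and CDT1 load the MCM helicase at origins, and GINS3 belongs to the active helicase.
CDC6: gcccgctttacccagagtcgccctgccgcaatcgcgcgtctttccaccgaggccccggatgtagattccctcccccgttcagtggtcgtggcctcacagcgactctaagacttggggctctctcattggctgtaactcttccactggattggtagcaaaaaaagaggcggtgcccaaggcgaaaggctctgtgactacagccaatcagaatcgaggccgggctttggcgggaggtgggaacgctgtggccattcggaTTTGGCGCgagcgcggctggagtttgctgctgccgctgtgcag
CDT1: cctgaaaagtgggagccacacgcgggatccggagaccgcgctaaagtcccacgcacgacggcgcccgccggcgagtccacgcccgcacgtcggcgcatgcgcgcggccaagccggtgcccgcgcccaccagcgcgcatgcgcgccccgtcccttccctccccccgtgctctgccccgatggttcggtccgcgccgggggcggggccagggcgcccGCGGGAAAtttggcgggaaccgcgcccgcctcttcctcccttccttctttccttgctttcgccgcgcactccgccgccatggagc
GINS3: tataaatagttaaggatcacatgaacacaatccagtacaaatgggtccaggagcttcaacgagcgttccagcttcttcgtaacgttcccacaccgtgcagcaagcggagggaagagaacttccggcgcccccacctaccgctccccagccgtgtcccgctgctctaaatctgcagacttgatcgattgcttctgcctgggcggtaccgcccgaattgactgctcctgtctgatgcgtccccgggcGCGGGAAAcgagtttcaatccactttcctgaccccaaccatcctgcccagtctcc

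CDC6 stood at 143, 140 and 142 CPM in WT in DMSO and at 364, 344 and 348 CPM with ATRi. In STK19_KO1 it rose from 188, 190 and 195 to 338, 323 and 330 CPM, and in STK19_KO2 from 377, 373 and 377 to 558, 596 and 586 CPM. The rise was seen in every line and was larger in WT, and STK19_KO2 was higher than the other lines in both treatments (interaction -0.60). CDT1 went from 225, 258 and 240 to 505, 497 and 499 CPM in WT, from 262, 269 and 258 to 381, 427 and 402 CPM in STK19_KO1, and from 321, 323 and 344 to 426, 398 and 395 CPM in STK19_KO2 (interaction -0.59 ± 0.14). GINS3 had an interaction of -0.56, with 42.8, 40.6 and 42.0 CPM in WT in DMSO and 94.9, 93.7 and 93.4 CPM with ATRi. Its clones held 55.0 to 74.1 CPM in DMSO and 92.5 to 109 CPM with ATRi.

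ORC1 (ENSG00000085840, 1:52372829-52404423), the origin recognition subunit that precedes CDC6, had the largest lower value of the list. It stood at 61.0, 58.2 and 62.3 CPM in WT in DMSO and at 199, 195 and 183 CPM with ATRi. In STK19_KO1 it went from 117, 113 and 113 to 208, 190 and 192 CPM, and in STK19_KO2 from 113, 115 and 111 to 190, 189 and 192 CPM. With ATRi the 3 lines overlapped, and in DMSO every clone library lay above every WT library. The interaction of ORC1 was -0.90 ± 0.06 (adjusted p = 2.69e-17). TK1, the thymidine kinase of nucleotide salvage, had -0.66 ± 0.09 (adjusted p = 2.78e-08). Of the 36 members, 26 were above WT in the clones in DMSO and 9 below it, beside 33.1% and 39.0% of all genes. With ATRi 13 were above and 15 below, near the 33.7% and 37.4% of all genes. Of the 3 called higher, E2F3 was at 0.29 ± 0.06 and RFC4, a subunit of the clamp loader, at 0.27. E2F3, itself an E2F factor, rose in WT from 133, 123 and 130 to 180, 193 and 195 CPM and in STK19_KO1 from 63.8, 63.7 and 60.7 to 125, 119 and 117 CPM. Its STK19_KO2 levels are not reported here.

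Genes of the ATR checkpoint were called lower in 11 of 20 cases (55%, beside 20.1% of all genes) and higher in 4 (20%, beside 20.7%). ATR itself (ENSG00000175054, 3:142449007-142578733) was higher. WT held 44.2, 40.6 and 41.7 CPM in DMSO and 43.9, 47.1 and 47.9 CPM with ATRi, a change that did not pass (0.14, adjusted p = 0.07). STK19_KO1 rose from 18.9, 19.5 and 16.8 to 34.9, 31.6 and 35.3 CPM and STK19_KO2 from 19.2, 19.1 and 19.7 to 35.2, 35.1 and 36.1 CPM. The clones were below every WT library in both treatments and came nearer to WT with ATRi (interaction 0.74 ± 0.08, adjusted p = 1.09e-10). ATRIP, the partner that brings ATR to single-stranded DNA, was at 0.27, the ATR activator ETAA1 at 0.34 and the mitotic phosphatase CDC25C at 0.38 ± 0.09. CDC25C overlaps FAM53C on the other strand by 6421 bases. FAM53C had up to 201800 counts in 1 library, so the CDC25C value is uncertain.

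The 3 subunits of the 9-1-1 clamp, which activates ATR at junctions of single- and double-stranded DNA, were all lower: HUS1 at -0.93, RAD1 at -0.43 and RAD9A at -0.39. HUS1 (ENSG00000136273, 7:47963288-47979615) rose in WT from 16.2, 16.1 and 16.6 to 36.8, 40.5 and 37.4 CPM. In STK19_KO1 it stood at 17.6, 15.7 and 16.6 CPM and 18.6, 17.5 and 18 CPM, and in STK19_KO2 it rose from 18.8, 19.2 and 17.6 to 24.1, 26.8 and 26.7 CPM. With ATRi every WT library lay above every clone library, and the interaction of HUS1 was -0.93 ± 0.09 (adjusted p = 1.48e-12). CHEK1, the kinase that ATR activates, rose in WT from 57.3, 53.1 and 55.5 to 98.9, 99.9 and 102 CPM, in STK19_KO1 from 51.3, 50.2 and 53.1 to 79.4, 71.5 and 77.1 CPM, and in STK19_KO2 from 48.4, 49.0 and 48.4 to 65.5, 72.7 and 66.9 CPM. The rise of CHEK1 was largest in WT (interaction -0.33 ± 0.09, adjusted p = 0.00218).

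CDC25A, the phosphatase that CHEK1 marks for destruction, rose in WT from 142, 134 and 141 to 350, 360 and 350 CPM. It rose in STK19_KO1 from 248, 253 and 244 to 498, 478 and 472 CPM and in STK19_KO2 from 203, 201 and 197 to 305, 324 and 307 CPM. The interaction of CDC25A was -0.55 ± 0.04 (adjusted p = 2.22e-16), and both clones were above WT in DMSO. The fork protection pair TIPIN and TIMELESS were at -0.46 and -0.16, the mediator CLSPN at -0.24 and the inhibitory kinase PKMYT1 at -0.50. TOPBP1, RAD17, RPA1, RPA3 and WEE1 were not called. RAD17 had -0.15 ± 0.09 (adjusted p = 0.179) and RPA1 -0.11 ± 0.05 (adjusted p = 0.0742). RPA1 passed, with an adjusted p of 0.0314, 0.0403 and 0.0356, without WT ATRi replicate 3, STK19_KO1 ATRi replicate 1 or WT DMSO replicate 1. It also passed with a replicate block within each line (0.0347), with no filter (0.0364) and with the 18 libraries fitted alone (0.0104), where RAD17 passed too (0.0180).

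Of 26 nucleotide excision repair genes, 11 were called lower (42.3%, beside 20.1% of all genes) and 3 higher (11.5%, beside 20.7%). ERCC6, which encodes CSB, stood at 37.7, 35.7 and 36.8 CPM in WT in DMSO and at 43.5, 44.0 and 44.8 CPM with ATRi. In STK19_KO1 it had 30.1, 31.9 and 30.7 CPM and 30.5, 27.7 and 30.03 CPM, and in STK19_KO2 34.6, 36.4 and 35.2 CPM and 35.7, 38.4 and 35.7 CPM. ERCC6 rose in WT by 0.26 and passed in neither clone (interaction -0.27 ± 0.09, adjusted p = 0.00767). With STK19_KO2 alone the ERCC6 call was lost (adjusted p = 0.0856). XAB2, which binds the stalled polymerase together with CSB, rose in WT from 72.3, 80.7 and 77.4 to 147, 139 and 139 CPM. In the clones, which held 175 to 214 CPM in DMSO, it rose by 0.28 and 0.26 (interaction -0.61 ± 0.11, adjusted p = 1.49e-05). ELOF1, the elongation factor that helps to place ubiquitin on stalled polymerase, was at -0.43, and the TFIIH kinase subunit CDK7 at -0.44 ± 0.09. ERCC4, whose product XPF cuts on one side of the lesion, went the other way. It rose in WT from 34.1, 30.8 and 32.0 to 41.2, 46.1 and 44.4 CPM, in STK19_KO1 from 24.8, 22.9 and 23.7 to 54.1, 47.8 and 48.2 CPM, and in STK19_KO2 from 28.6, 27.7 and 28.0 to 47.9, 53.1 and 52.2 CPM. The interaction of ERCC4 was 0.52 ± 0.09 (adjusted p = 6.9e-06), and GTF2H3 of TFIIH had 0.44 ± 0.09. ERCC8, the partner of CSB in a ubiquitin ligase, was not called (0.16 ± 0.10, adjusted p = 0.178), and passed among genes at a mean of 3 log2 CPM or more (0.24, adjusted p = 0.0346).

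In other repair lists the calls were divided. Break signalling and PARP genes had 4 lower (25%) and 3 higher (18.8%) of 16, near the 20.1% and 20.7% of all genes. Homologous recombination and Fanconi genes had 9 lower (37.5%) and 6 higher (25%) of 24. Translesion synthesis genes had 3 lower (25%) and 4 higher (33.3%) of 12. EXO1, a nuclease that resects DNA ends, rose in WT from 202, 198 and 203 to 625, 628 and 623 CPM. In STK19_KO1 it rose from 246, 244 and 243 to 434, 418 and 435 CPM and in STK19_KO2 from 272, 282 and 262 to 422, 438 and 438 CPM, always to a lower level than in WT (interaction -0.90 ± 0.06, adjusted p = 6.36e-17). PARP2, a sensor of strand breaks, rose in WT from 85.8, 80.3 and 86.3 to 157, 154 and 149 CPM. Its STK19_KO1 libraries all lay between 72.2 and 79.1 CPM, and its STK19_KO2 levels are not reported here. The interaction of PARP2, over both clones, was -0.79 ± 0.07 (edgeR, adjusted p = 5.69e-13). ATM, the kinase of double-strand breaks, fell in WT from 57.2, 49.4 and 54.2 to 39.2, 43.4 and 41.0 CPM. ATM rose by 0.36 and 0.43 in the clones, which stayed below every WT library (interaction 0.77 ± 0.10, adjusted p = 7.37e-09).

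Among 27 p53 targets, 9 were called lower (33.3%, beside 20.1% of all genes) and 1 higher (3.7%, beside 20.7%). PHLDA3, a p53 target that restrains AKT, had 45.6, 49.995 and 47.1 CPM in WT in DMSO and 56.6, 51.7 and 49.5 CPM with ATRi. It fell in STK19_KO1 from 69.7, 71.1 and 66.6 to 41.9, 43.9 and 40.3 CPM and in STK19_KO2 from 28.1, 28.8 and 28.6 to 15.7, 13.8 and 14.4 CPM. The clones stood on opposite sides of WT in DMSO and fell alike (interaction -0.99 ± 0.11, adjusted p = 5.69e-11). BBC3, the death gene PUMA, was at -0.62 ± 0.16, and CDKN1A, the cyclin kinase inhibitor p21, at -0.39. HEK293 cells carry adenoviral proteins that bind p53. Of 15 BCL2 family genes 5 were lower (33.3%) and 4 higher (26.7%). BMF, a BH3-only death gene, was at 0.90 ± 0.12 (adjusted p = 1.24e-08).

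Mitotic genes went the other way from G1/S genes, with 12 of 32 called higher (37.5%, beside 20.7% of all genes) and 3 lower (9.4%, beside 20.1%). HMMR, a spindle protein, fell in WT from 84.5, 78.4 and 84.0 to 44.0, 49.0 and 49.7 CPM. It rose in STK19_KO1 from 40.03, 42.2 and 46.4 to 61.4, 54.0 and 57.5 CPM and in STK19_KO2 from 33.0, 34.9 and 33.2 to 39.9, 39.2 and 39.6 CPM. In DMSO all HMMR libraries of the clones lay below WT, and with ATRi STK19_KO1 lay above it (interaction 1.12 ± 0.11, adjusted p = 1.97e-12). The kinetochore motor CENPE was at 0.97 ± 0.11 (adjusted p = 7.14e-11). The kinase AURKB was lower, at -0.30 ± 0.06, as was NEK2 at -0.23 ± 0.07. The NEK2 call was lost among genes at a mean of 3 log2 CPM or more (adjusted p = 0.0695) and with STK19_KO1 alone (0.227). The list's median was -0.30 in WT, -0.21 in STK19_KO1 and -0.10 in STK19_KO2, and its median interaction was 0.06. The letters TTTGAA, the core of the cell cycle homology element, occur on either strand in 18 of the 27 mitotic promoters in the table. They occur in 15.4% of all its promoters and in 9.82% of the 12137 tested genes with a promoter in it.

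**Figure D4:**
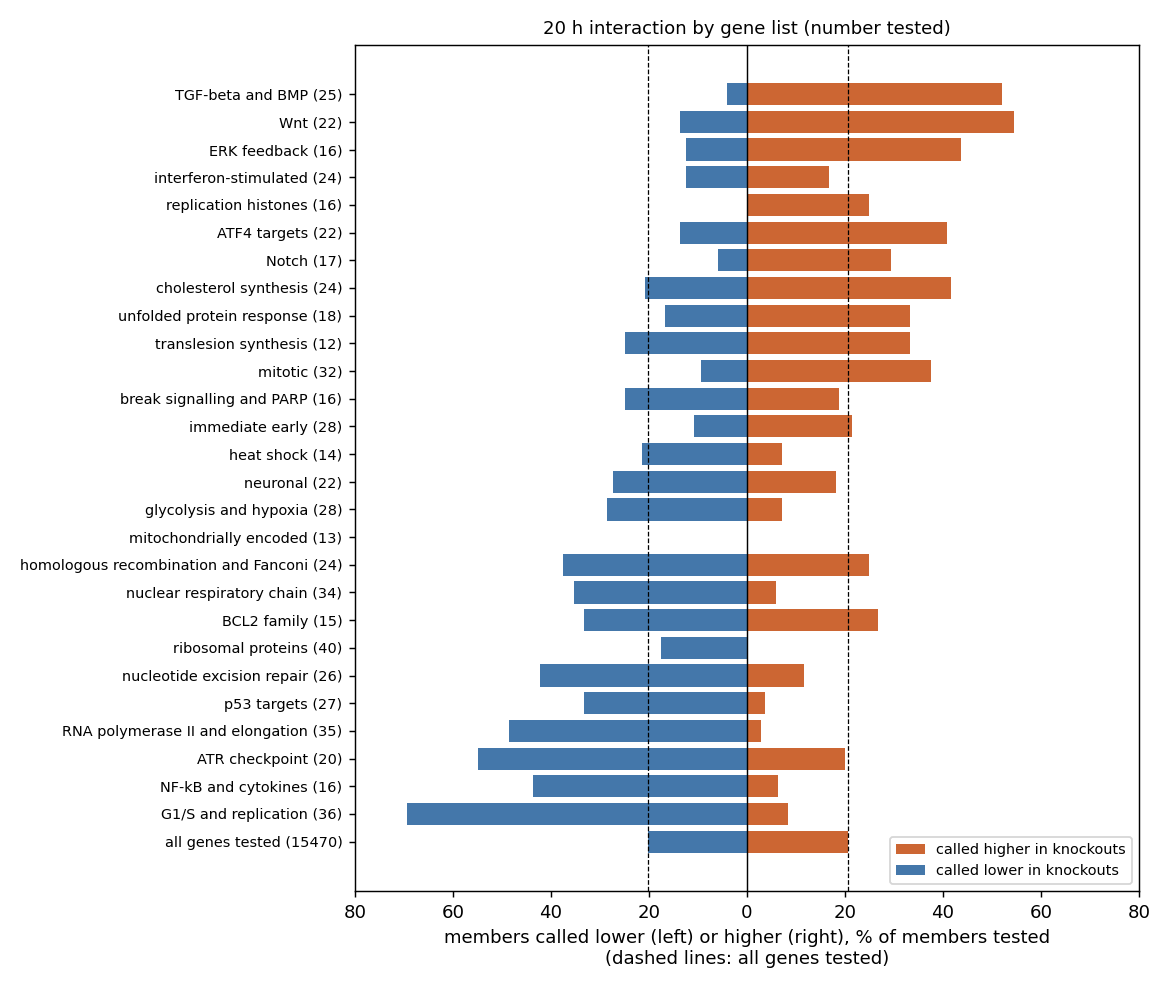
Percent of tested members of each pathway list called higher (right, orange) or lower (left, blue) in the knockouts, with the number tested in parentheses and dashed lines at the shares over all genes, 20.7% and 20.1%. Marker lists are not drawn. G1/S and replication genes have the most lower calls (25 of 36), and among the pathway lists the Wnt list (12 of 22) and the TGF-beta and BMP list (13 of 25) have the largest shares of higher calls.

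Genes of RNA polymerase II and its elongation factors had 17 of 35 called lower (48.6%, beside 20.1% of all genes) and 1 higher (2.9%, beside 20.7%). The list's median change was 0.29 in WT, -0.01 in STK19_KO1 and 0.07 in STK19_KO2. POLR2H, a subunit shared by the nuclear polymerases, stood at 53.8, 49.4 and 53.1 CPM in WT in DMSO and at 85.1, 74.1 and 72.3 CPM with ATRi. In the clones it held 118 to 140 CPM in DMSO and 116 to 126 CPM with ATRi, above every WT library (interaction -0.64 ± 0.08, adjusted p = 6.29e-10). PAF1 of the PAF complex was at -0.62 ± 0.07, the elongation factor SUPT5H at -0.54 and the kinase CDK9 at -0.30. POLR2B, the second largest subunit, was the higher call, at 0.23 ± 0.06, and lost it with STK19_KO1 alone (adjusted p = 0.0560).

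In the TGF-beta and BMP list 13 of 25 genes were called higher (52%, beside 20.7% of all genes) and 1 lower (4%, beside 20.1%). The list's median change was -0.48 in WT, -0.01 in STK19_KO1 and -0.08 in STK19_KO2. The ID genes, targets of BMP signalling, were higher together: ID1 at 1.53, ID3 at 1.10 and ID2 at 0.54. Among receptors, the co-receptor TGFBR3 fell in WT from 19.9, 17.5 and 18.3 to 5.80, 6.04 and 6.76 CPM. It held 13.8 to 16.4 CPM in DMSO in the clones and 10.8 to 13.4 CPM with ATRi, so that with ATRi all clone libraries lay above WT (interaction 1.28 ± 0.10, adjusted p = 1.78e-15). BMPR2 was at 0.84, ACVR1 at 0.33 and BMPR1A at 0.30. The inhibitory SMAD6 was at 0.94 and SMAD7 at 0.31, while SMAD4, the shared mediator, was lower at -0.28 ± 0.06. The list's genes had a median span of 78.0 kb, beside 32.7 kb over all genes tested; the part of span in these calls was not tested.

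Wnt pathway genes, with a median span of 90.5 kb, had 12 of 22 called higher (54.5%, beside 20.7% of all genes) and 3 lower (13.6%, beside 20.1%). LGR5, a receptor for R-spondins, fell in WT from 46.8, 41.6 and 44.7 to 33.3, 35.5 and 33.7 CPM. It rose in STK19_KO1 from 25, 24.4 and 22.3 to 45.2, 40.8 and 41.8 CPM and in STK19_KO2 from 17.6, 18.4 and 18.6 to 23.9, 26.0 and 23.5 CPM. The order of WT and STK19_KO1 was reversed between DMSO and ATRi (interaction 1.00 ± 0.07, adjusted p = 2.22e-16). The nuclear effector TCF7L2 was at 0.65 ± 0.12, and the secreted inhibitor DKK1 was lower, at -0.79 ± 0.25, a call lost with STK19_KO1 alone (adjusted p = 0.08995). Of 17 Notch genes 5 were higher (29.4%) and 1 lower (5.9%). NOTCH2 fell in WT from 146, 144 and 142 to 65.1, 74.2 and 71.9 CPM, while the clones held 118 to 152 CPM in DMSO and 132 to 146 CPM with ATRi (interaction 1.03 ± 0.09, adjusted p = 1.34e-13). The receptor NOTCH3 was at 0.84 ± 0.22.

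Genes of NF-kB and its cytokines had a median change with ATRi of 1.02 in WT, 0.67 in STK19_KO1, 0.66 in STK19_KO2 and 0.12 in CSB_KO. Of 16 tested, 7 were called lower (43.8%, beside 20.1% of all genes) and 1 higher (6.3%, beside 20.7%). NFKB2, a subunit of the non-canonical branch, rose in WT from 48.4, 52.2 and 51.8 to 164, 153 and 147 CPM, in STK19_KO1 from 62.0, 65.6 and 60.4 to 97.7, 105 and 99.6 CPM, and in STK19_KO2 from 55.7, 58.0 and 57.1 to 86.4, 85.3 and 85.5 CPM. With ATRi every WT library of NFKB2 lay above every clone library (interaction -0.97 ± 0.10, adjusted p = 4.76e-12). Its partner RELB was at -0.89 ± 0.15 (adjusted p = 2.62e-06) and the canonical subunit RELA at -0.68.

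Stress and growth factor lists held calls in both directions. Of 28 immediate early genes 6 were higher (21.4%, beside 20.7% of all genes) and 3 lower (10.7%, beside 20.1%). FOS rose in WT from 9.79, 9.89 and 9.31 to 16.8, 17.2 and 16.4 CPM, in STK19_KO1 from 7.57, 7.61 and 7.99 to 25.3, 26.8 and 25.2 CPM, and in STK19_KO2 from 14.5, 15.3 and 14.4 to 37.4, 36.6 and 37.1 CPM (interaction 0.73 ± 0.09, adjusted p = 7.24e-10). The rise of FOS was thus larger in both clones. ERK feedback genes had 7 higher (43.8%) and 2 lower (12.5%) of 16, and ATF4 targets 9 (40.9%) and 3 (13.6%) of 22. Unfolded protein response genes had 6 higher (33.3%) and 3 lower (16.7%) of 18. ERN1, the stress sensor IRE1, rose in WT from 14.6, 15.4 and 17.3 to 21.3, 21.4 and 18.7 CPM, in STK19_KO1 from 22.6, 22.4 and 20.7 to 57.3, 52.1 and 54.5 CPM, and in STK19_KO2 from 24.9, 23.5 and 24 to 50.3, 52.6 and 50.2 CPM (interaction 0.83 ± 0.07, adjusted p = 9.93e-15). SLC7A11, the cystine transporter, had 1.10 ± 0.11 (adjusted p = 3.45e-12). Heat shock genes had 1 higher (7.1%) and 3 lower (21.4%) of 14. Interferon-stimulated genes had 4 higher (16.7%) and 3 lower (12.5%) of 24, with ISG15 at 0.96 ± 0.17.

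Among metabolic and housekeeping lists, cholesterol synthesis genes had 10 higher (41.7%, beside 20.7% of all genes) and 5 lower of 24. Nuclear genes of the respiratory chain had 2 higher and 12 lower (35.3%, beside 20.1%) of 34. Glycolysis genes had 2 higher (7.1%) and 8 lower (28.6%) of 28. Of 40 ribosomal protein genes none was higher and 7 were lower, with a median interaction of -0.12. Their share of lower calls, 17.5%, was below the 20.1% of all genes. None of the 13 mitochondrially encoded genes was called (median -0.09). Neuronal genes had 4 higher (18.2%) and 6 lower (27.3%) of 22. Replication histone genes, whose transcripts lack a poly(A) tail for the most part, had 4 higher (25%) and none lower of 16. None of these 4 passed in each clone.

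Markers of other cell types ranged from near 0 to well counted. Of 10 blood markers 5 were tested, with 1 called lower and none higher. The haemoglobin gene HBA1 had up to 7009 counts in 1 library, the monocyte genes CD14 and CD68 up to 2051 and 1005, and the pan-leukocyte gene PTPRC up to 9. The summed blood markers ran from 15.9 to 23.4 CPM in WT and from 39.1 to 51.8 CPM in the clones. Of 10 fibroblast markers 5 were tested and none was called; their sum ran from 13.1 to 14.6 CPM in WT in DMSO, 6.74 to 7.47 CPM in WT with ATRi, 13.1 to 22.3 CPM in the clones in DMSO and 7.55 to 11.2 CPM with ATRi. Of 10 squamous markers 3 were tested, with 1 higher and 2 lower, and their sums lay between 126 and 165 CPM in all groups, with PERP and KRT10 reaching 21710 and 7100 counts in 1 library. Kidney tubule markers, 6 of 12 tested, had 4 called higher (66.7%, beside 20.7% of all genes). Their sum fell in WT from 42.4 to 45.5 CPM in DMSO to 26.0 to 30.2 CPM with ATRi. In STK19_KO2 the sum also fell, from 34.2 to 34.6 CPM in DMSO to 28.2 to 30.2 CPM with ATRi. In STK19_KO1 it was 27.0 to 28.0 CPM in DMSO and 24.7 to 27.9 CPM with ATRi. LRP2, the endocytic receptor megalin, was at 1.35 ± 0.11. The part of such markers in the results was not tested.

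The 2 clones were set against each other in a comparison that holds no WT library. Their change with ATRi differed in 632 genes (4.09%) in either direction. Of the 632, 357 were among the 6316 called genes above, which made up 40.8% of all genes tested. The count of genes that differed between clones was 417 without STK19_KO1 DMSO replicate 1 and 1628 when the 18 libraries were fitted alone. DUSP6, a phosphatase that shuts off ERK, stood at 22.4, 20.8 and 22.4 CPM in WT in DMSO and at 13.8, 14 and 15.7 CPM with ATRi. It rose in STK19_KO1 from 14.5, 14.3 and 14.5 to 23.3, 24 and 23.6 CPM, while in STK19_KO2 it had 21.8, 22.1 and 24 CPM and 22.5, 22.9 and 22.1 CPM. DUSP6 fell by 0.59 in WT, rose by 0.71 in STK19_KO1 and did not pass in STK19_KO2 (-0.0062), and was called higher against WT at 0.95 ± 0.08. The clones differed by 0.72 ± 0.09 (adjusted p = 1.46e-07).

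The same comparison was made at 4 h, in libraries that the 20 h comparison does not use. There edgeR called 1 gene (0.00646%), ADAMTS1, a secreted protease, at 0.24 ± 0.04, beside -0.28 at 20 h; 831 genes (5.37%) had an unadjusted p under 0.05, and DESeq2 called 12. Genes called at 20 h had a median size of 0.06 at 4 h, and 44.7% of them had the same sign there, beside 48.4% of the genes not called. The interaction itself differed between 20 h and 4 h in 4298 genes (27.8%). With its sign kept, it was higher at 20 h in 2244 (14.5%) and lower, or more negative, in 2054 (13.3%). The 24 genes with the largest 20 h values were chosen by a value that this difference contains, so their passing it is no separate evidence. At 4 h they lay between -0.43 and 0.32, and none of them was called. ATR had -0.07 ± 0.08 at 4 h and 0.74 ± 0.08 at 20 h.

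**Figure D5:**
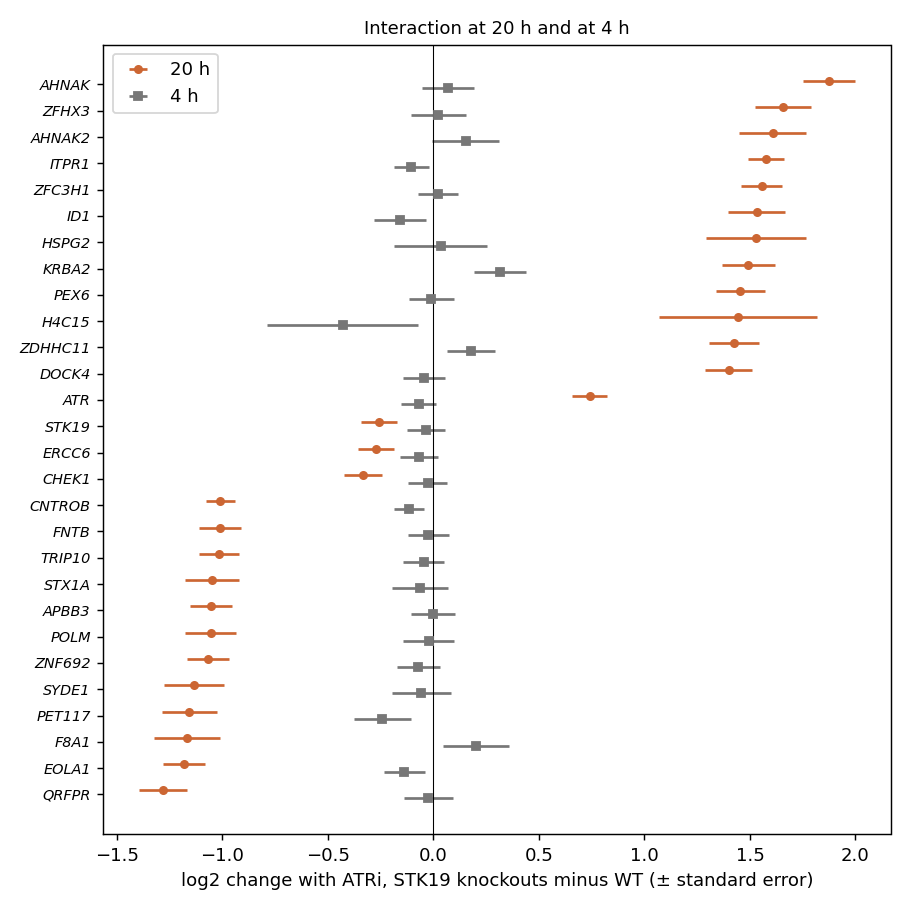
Interaction (log2 change with ATRi in the knockouts minus that in WT) at 20 h (orange circles) and 4 h (grey squares), with standard errors, for the 24 genes with the largest 20 h values and for ATR, STK19, ERCC6 and CHEK1. At 4 h the 24 genes lie between -0.43 and 0.32, whereas at 20 h they lie at 1.399 or above or at -1.01 or below.

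Against CSB_KO, the other edited line, the signed change with ATRi in the STK19 knockouts was higher in 3638 genes (23.5%) and lower in 2731 (17.7%). Both comparisons use the same 12 STK19 knockout libraries, so values are set side by side. Of the 12 genes with the largest positive value against WT, 6 also passed against CSB_KO, all higher: ITPR1 had 0.98 and HSPG2 1.35, close to the rise of these genes in the clones, since CSB_KO changed by 0.06 and -0.02. ZFHX3 and DOCK4 had 0.13 and 0.03 against CSB_KO and did not pass. Of the 12 with the largest negative value, 5 passed, 4 lower and QRFPR higher at 0.74. The median of the G1/S list was 0.00 in CSB_KO, beside 0.69 in WT. ORC1 in CSB_KO held 135, 146 and 138 CPM in DMSO and 116, 129 and 123 CPM with ATRi, and CDC25A 226, 225 and 217 CPM and 232, 224 and 225 CPM. ATR in CSB_KO stood at 14.7, 13.8 and 14.8 CPM in DMSO and 18.3, 18 and 17.4 CPM with ATRi, below all STK19 knockout libraries with ATRi.

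The lines also differed within each treatment. STK19 knockouts and WT differed in 11153 genes (72.1%) in 20 h DMSO, in 11009 (71.2%) with ATRi and in 7973 (51.5%) untreated, so an interaction can come from lines that were apart in DMSO and met with ATRi, or the reverse. Of the 12 genes with the largest positive value, 11 were below WT in the clones in DMSO and 1, KRBA2, above it. Of the 12 with the largest negative value, 9 were above WT in DMSO and 2 below. In ZFHX3 the gap was -1.72 in DMSO and -0.07 with ATRi; in SYDE1 it was 1.05 and -0.08; in POLM it was 0.15 and -0.90, and in KRBA2 0.27 and 1.77. The gap in DMSO and the interaction share the DMSO libraries, so their opposite signs are not independent measurements.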

How the data were processed

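Polyadenylated RNA from 18 libraries (WT, STK19_KO1 and STK19_KO2 at 20 h in DMSO or ATRi, 3 each) was compared, with CSB_KO, 4 h and untreated libraries set beside them. RNA extraction used Qiagen RNeasy and library preparation NEBNext Ultra II Directional chemistry, per the labels' protocols. According to the submitters' processing notes, STAR and RSEM were used with GRCh38, and the table deposited by the authors holds unnormalised expected counts per gene, which are whole numbers; coverage tracks made with deepTools 3.5.1 were not used. Versions of STAR and RSEM, the strand setting and the annotation release are not given in the sources used here.

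One model of 72 libraries and 24 groups, without covariates, was fitted by the quasi-likelihood method of edgeR 4.0.16 (R 4.3.3). Scaling was by TMM (factors from 0.972 to 1.125 in the 18 libraries: 1.110 to 1.125 in WT in DMSO, 1.032 to 1.043 in WT with ATRi, 0.972 to 1.024 in the clones). The filter filterByExpr (minimum count 10, minimum total 15) kept 15470 of 19324 genes, 572 of which have no symbol in the table. P-values were adjusted by Benjamini-Hochberg over all genes tested, with a threshold of 0.05, and a call also needed the same sign in both clones. The fit was tested on simulated data. Alternatives were limma 3.58.1 (voom), DESeq2 1.42.0, other scaling, other filters, fewer libraries, each clone alone, a replicate block and each of the 18 libraries left out in turn.

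The rule for named genes took the 12 largest interactions each way at a mean of at least 3 log2 CPM and passing in each clone, STK19, ERCC6, ATR and CHEK1, and up to 2 called members each way per list; list members named beyond it were chosen after their values were seen. Members called only weakly are not all described. The contrast, the members and the lists (27 of pathways and 4 of markers, written from general knowledge) were chosen with earlier results of these data known. Lists are described by counts and medians with no set test. Values of some list members are not reported here. Spans come from the coordinates in the deposited table, promoters from RefSeq (GRCh38.p14). Of tested genes, 12137 of 15470 matched the promoter table, and shares are given over these and over the whole table. Same-numbered replicates of different groups had residual correlations of -0.065 to 0.114 over 45 pairs (other numbers -0.096 to 0.085). Within a line the 9 same-numbered pairs ran from -0.024 to 0.039, with a median of 0.028 beside -0.003 for all pairs of other numbers. They were positive in WT and STK19_KO1 and negative in STK19_KO2. These values are small, and the samples were taken as unpaired in the model. Calls with replicate blocks are given below.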

Additional observations from a re-analysis of the deposited data

Results flagged for a closer look

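These results are listed because the change with ATRi differed between lines or times in edgeR's test of the difference itself. The number of genes was 6316 for the STK19 knockouts against WT, 632 for STK19_KO1 against STK19_KO2, 6369 for the STK19 knockouts against CSB_KO and 4298 for 20 h against 4 h.

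Among the 129 named genes, 15 changed differently in the 2 clones, beside 632 of the 15470 genes tested (4.09%). The log2 change in STK19_KO1 minus that in STK19_KO2 was positive in DUSP6 (0.72), SLC7A11 (0.60), SEL1L (0.42), FOS (0.41), PERP (0.41), LGR5 (0.41), STC2 (0.39) and CDC25A (0.32). It was negative in FANCL (-0.59), HSPA1B (-0.51), TM7SF2 (-0.50), ZDHHC11 (-0.47), ZFC3H1 (-0.37), HUS1 (-0.36) and DNAJB1 (-0.25). HUS1 passed for a rise with ATRi in STK19_KO2 (0.48) and not in STK19_KO1 (0.11), and PERP, a desmosome protein, had 0.11 in STK19_KO1 and fell by 0.29 in STK19_KO2. HSPA1B, a heat shock protein gene with a near-identical copy, had an interaction of 0.04 in STK19_KO1 and 0.55 in STK19_KO2, so its call against WT rests on the second clone. With 1 such comparison of 2 clones, what sets them apart was not tested.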

How the results depend on the processing

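Leaving out each of the 18 libraries in turn gave 2781 to 3198 higher and 2821 to 3090 lower calls, 479 to 556 and 46 to 56 of them at least 2-fold. Counts were 9344 to 9881 for the WT change, 8816 to 9541 for STK19_KO1, 8347 to 9017 for STK19_KO2, 4969 to 5507 and 4952 to 5491 for each clone against WT, 417 to 614 between clones (417 without STK19_KO1 DMSO replicate 1), 6162 to 6372 against CSB_KO, 3856 to 4318 between times, 7945 to 8034 untreated and 1 at 4 h. Span class medians ran from -0.10 to -0.07, -0.084 to -0.069, 0.02 to 0.04, 0.23 to 0.26 and 0.39 to 0.44 from shortest to longest, and the break and PARP list from -0.017 (without WT ATRi replicate 1) to 0.036.

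Higher and lower calls were 3306 and 3117 with DESeq2, 3218 and 3191 with voom, 3229 and 3042 with DESeq2's size factors in edgeR, 3757 and 2467 with upper quartile factors, 2782 and 3324 with no filter, 2691 and 2166 at a mean of 3 log2 CPM, 3290 and 4485 with the 18 libraries fitted alone, 2789 and 2752 in STK19_KO1 alone, 2802 and 2699 in STK19_KO2 alone, and 3326 and 3325 with a replicate block (3345 and 3394 with a block within each line). No called named gene lost its call or changed direction with either block, and RPA1 gained its call with the block within each line (-0.11, edgeR, adjusted p = 0.0347). Calls of at least 2-fold were 95 higher and 7 lower at a mean of 3 log2 CPM, and 77 lower with the 18 libraries alone, where the clones differed in 1628 genes. At 4 h there were 12 calls with DESeq2, 3 at a mean of 3 log2 CPM, 0 with no filter, 3 with the replicate block, 4 with the block within each line, 2 with DESeq2's size factors and 3 with upper quartile factors.

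With the 18 libraries alone, span medians from shortest to longest up to 300 kb were -0.13, -0.12, -0.014 (reversed) and 0.21, and the median of all genes was -0.019. With upper quartile factors all 5 were -0.027, -0.021, 0.081, 0.30 and 0.46. With no filter those up to 10 kb and from 10 to 30 kb were -0.0030 and -0.057, and at a mean of 3 log2 CPM that beyond 300 kb was 0.49. List medians changed sign with the 18 libraries alone (break and PARP -0.015, heat shock -0.035, immediate early -0.026, neuronal -0.036), with no filter (heat shock -0.027, blood -0.0029, squamous 0.78), at a mean of 3 log2 CPM (glycolysis 0.043, blood -0.35, squamous 0.0083, neuronal -0.11, histones -0.012) and with STK19_KO2 alone (immediate early -0.065, neuronal -0.088). The cause was not tested.

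Named genes below a mean of 3 log2 CPM were not tested under that filter. Of 129 named genes none changed direction in the alternatives that tested it, counting only genes called in at least 1 of the fits compared. With 1 library left out, 15 lost or gained a call: ATP5MC1, CRELD2, H1-3, H1-4, HBA1, IL11, IRF1, MANF, NDUFB5, RPS19, SFN, STK19 and XPC lost it under at least 1 omission, and RPA1 and ERCC3 gained it. Under the other alternatives 29 lost or gained a call: those 15, ERCC8 and RAD17, which gained it, and BRCA2, DKK1, ERCC6, HEYL, HSPA1B, IFITM1, NDRG1, NEK2, PDK1, PERP, POLR2B and SEL1L, which lost it. Depth limits genes under 1 CPM most, where 297 of the 541 higher calls of at least 2-fold lie.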

Other observations

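Some members of lists not yet described had large values. The neuronal genes MAP2, a microtubule protein, and SNAP25, a synaptic fusion protein, were called higher at 1.37 ± 0.22 (edgeR, adjusted p = 7.06e-07) and 1.07 ± 0.15 (adjusted p = 4.98e-08), and both rose in the clones without passing in WT. GRM2, a glutamate receptor, and NGFR, the low-affinity receptor of nerve growth factor, were called lower at -0.98 ± 0.16 and -0.84 ± 0.12, and both rose in WT. FANCE of the Fanconi core complex was called lower at -0.78 ± 0.09 (adjusted p = 1.24e-10): it rose by 0.49 in WT and fell by 0.25 and 0.31 in the clones. RNF168, the ubiquitin ligase of break signalling, was at -0.53 ± 0.06, with a rise of 0.46 in WT. The JUN family member JUND and the phosphatase DUSP8 rose in all 3 lines and by less in the clones, at -0.56 ± 0.15 and -0.79 ± 0.16. SPRED3, an inhibitor of ERK signalling, rose by 1.08 and 1.26 in the clones and did not pass in WT, at 0.97 ± 0.14.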
